A study of Danio rerio with 12 samples.

Results

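Vitellogenins are the large yolk protein precursors of egg-laying animals. In fish, estradiol acts through estrogen receptors in the liver to switch on their genes, the protein is carried in the blood to the ovary, oocytes take it up, and it is cut into the yolk proteins lipovitellin and phosvitin. Males and immature fish normally make little of it, which is why vitellogenin is a standard marker of exposure to estrogenic chemicals. The zebrafish genes fall into type I copies (vtg1, vtg4, vtg5, vtg6 and vtg7), a larger type II form (vtg2) and vtg3, a shorter type that lacks the phosvitin part.

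The members were the rows whose gene symbol was vtg1, vtg2, vtg3, vtg4, vtg5, vtg6 or vtg7. All 7 were present, 1 row each, among 31540 genes, and each had at least 1 count. Their Ensembl identifiers in the files are ENSDARG00000092233 (vtg1), ENSDARG00000055809 (vtg2), ENSDARG00000016448 (vtg3), ENSDARG00000078429 (vtg4), ENSDARG00000092126 (vtg5), ENSDARG00000016825 (vtg6) and ENSDARG00000092419 (vtg7). In the RefSeq gene table of a later zebrafish assembly (GRCz12tu), which lists 6 of the 7 under these symbols, vtg7 and vtg2 are direct neighbours, vtg4, vtg5 and vtg6 lie nearby in the same run of genes, and vtg3 is on another chromosome. The files use another build, GRCz10, so no positions are given.

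The libraries came from wild-type zebrafish at 5 days post fertilization, a hatched, sexually immature stage. The agent was bisphenol A (BPA), a plastic monomer with weak estrogenic activity, dissolved in the water from day 2 to day 5 at 0.1, 1 or 4 mg/L. Control larvae received the solvent only, and every group including the control was kept in 0.2% DMSO. There were 3 libraries per group, 12 in all, each of poly-A RNA from 1 pool of 10 whole larvae, and the labels do not say whether the pools came from separate clutches, so the tests measure the spread between pools. Library totals were 21.95 to 34.22 M counts. Levels are given as CPM, counts divided by the TMM-scaled library total in M (1 M is 1e6 counts). In RNA from whole larvae, fewer cells of a type and less RNA per cell cannot be told apart.

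The vitellogenins were low at every dose, with 12 to 95 summed counts per library, and the highest levels were in 2 of the 3 libraries at 4 mg/L. Over all 7 copies the control libraries held 17, 12 and 19 counts (replicates 1, 2 and 3). The libraries at 0.1 mg/L held 21, 36 and 30 counts, and those at 1 mg/L held 35, 27 and 35. At 4 mg/L the counts were 79, 95 and 14. Replicates 1 and 2 at 4 mg/L were therefore above every other library, and replicate 3 lay within the range of the controls.

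The 95% Poisson intervals of the counts at 4 mg/L were 62.5 to 98.5 in replicate 1, 76.9 to 116 in replicate 2 and 7.65 to 23.5 in replicate 3. The first 2 do not overlap the interval of replicate 3. They cover counting error only. These 3 libraries were of similar size, with 35.3%, 32.0% and 32.7% of the group's total counts, but replicate 3 gave 7.45% of its vitellogenin counts.

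The summed level was 0.627 ± 0.299 CPM in the controls (mean ± SD, n = 3), 0.976 ± 0.24 CPM at 0.1 mg/L, 1.19 ± 0.487 CPM at 1 mg/L and 1.9 ± 1.31 CPM at 4 mg/L. The means rose with each dose, but neighbouring groups in that order overlapped at each of the 3 steps. Against control the ratio of mean summed CPM was 1.56 at 0.1 mg/L, 1.9 at 1 mg/L and 3.03 at 4 mg/L. No test was made of the sum. Without 4 mg/L replicate 3 the last ratio was 4.18, and without replicate 2 it was 2.14. With only the libraries numbered 1 and 2 of each group it was 5.75.

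**Figure D1:**
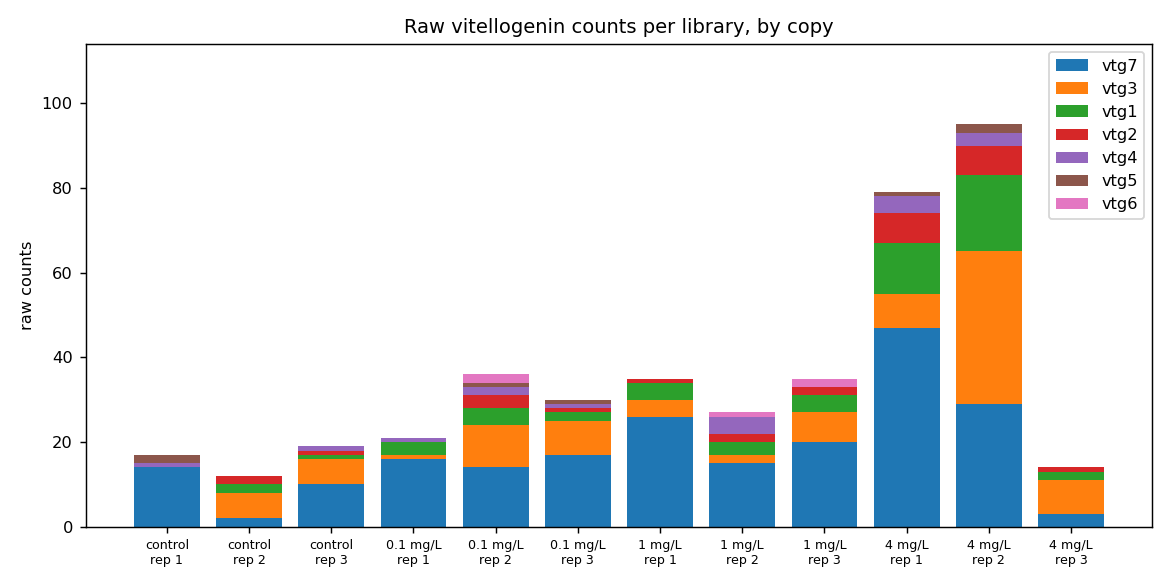
Raw counts of the 7 vitellogenin copies (vertical axis, stacked by copy) in each of the 12 libraries (horizontal axis). Replicates 1 and 2 at 4 mg/L hold 79 and 95 counts, and replicate 3 holds 14, as against 12 to 19 in the controls.

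The libraries that share a replicate number gave different pictures at the top dose. Among those numbered 1 the summed level was 2.21 CPM at 4 mg/L and 0.496 CPM in the control, and among those numbered 2 it was 3.03 and 0.416 CPM. Among those numbered 3 it was 0.469 CPM at 4 mg/L, below the control at 0.97 CPM. At 1 mg/L the level exceeded the same-numbered control under all 3 numbers, by 2, 2.02 and 1.8-fold, and at 0.1 mg/L by 1.42, 2.59 and 1.18-fold. The labels do not say that a number marks a shared clutch or day.

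Of the type I copies, vtg7 gave the most counts, 213 of the 420 over all libraries, and it was the only member that passed the filter for testing. Levels of different copies are not ranked here, because transcript lengths were not used. vtg7 had 14, 2 and 10 counts in the controls, 16, 14 and 17 at 0.1 mg/L, 26, 15 and 20 at 1 mg/L and 47, 29 and 3 at 4 mg/L. Control replicate 2 and 4 mg/L replicate 3 stood below all other libraries, and both exposed groups at the lower doses overlapped the controls in CPM. Its level was 0.329 ± 0.231 CPM in the controls, 0.535 ± 0.116 CPM at 0.1 mg/L, 0.734 ± 0.267 CPM at 1 mg/L and 0.78 ± 0.62 CPM at 4 mg/L.

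In edgeR's quasi-likelihood test (two-sided, Benjamini-Hochberg over 22399 genes) the log2 fold change of vtg7 against control was 0.73 (SE 0.75, adjusted p = 0.99) at 0.1 mg/L. It was 1.16 (SE 0.73, adjusted p = 0.69) at 1 mg/L and 1.30 (SE 0.72, adjusted p = 0.48) at 4 mg/L. Over dose ranks 0 to 3 its slope was 0.41 per rank (SE 0.21, adjusted p = 0.38), and for any difference among the 4 groups the adjusted p was 0.86. The number of members called was thus 0 of 1 tested in each of these 5 comparisons, and vtg7 had an unadjusted p above 0.05 in each. Across all genes tested the share called was 0% at 0.1 mg/L, 0.067% at 1 mg/L, 0.281% at 4 mg/L, 0.219% for the trend and 0.0625% for any difference. DESeq2 likewise called 0, beside 0.143%, 1.24%, 2.17%, 2.47% and 1.7% of genes in the same order, with an adjusted p of 0.48 at 4 mg/L, and left the adjusted p undefined at 0.1 mg/L, 1 mg/L and for the trend. The log2 fold change at 4 mg/L was 0.69 without replicate 1 of that dose and 1.82 without replicate 3.

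**Figure D2:**
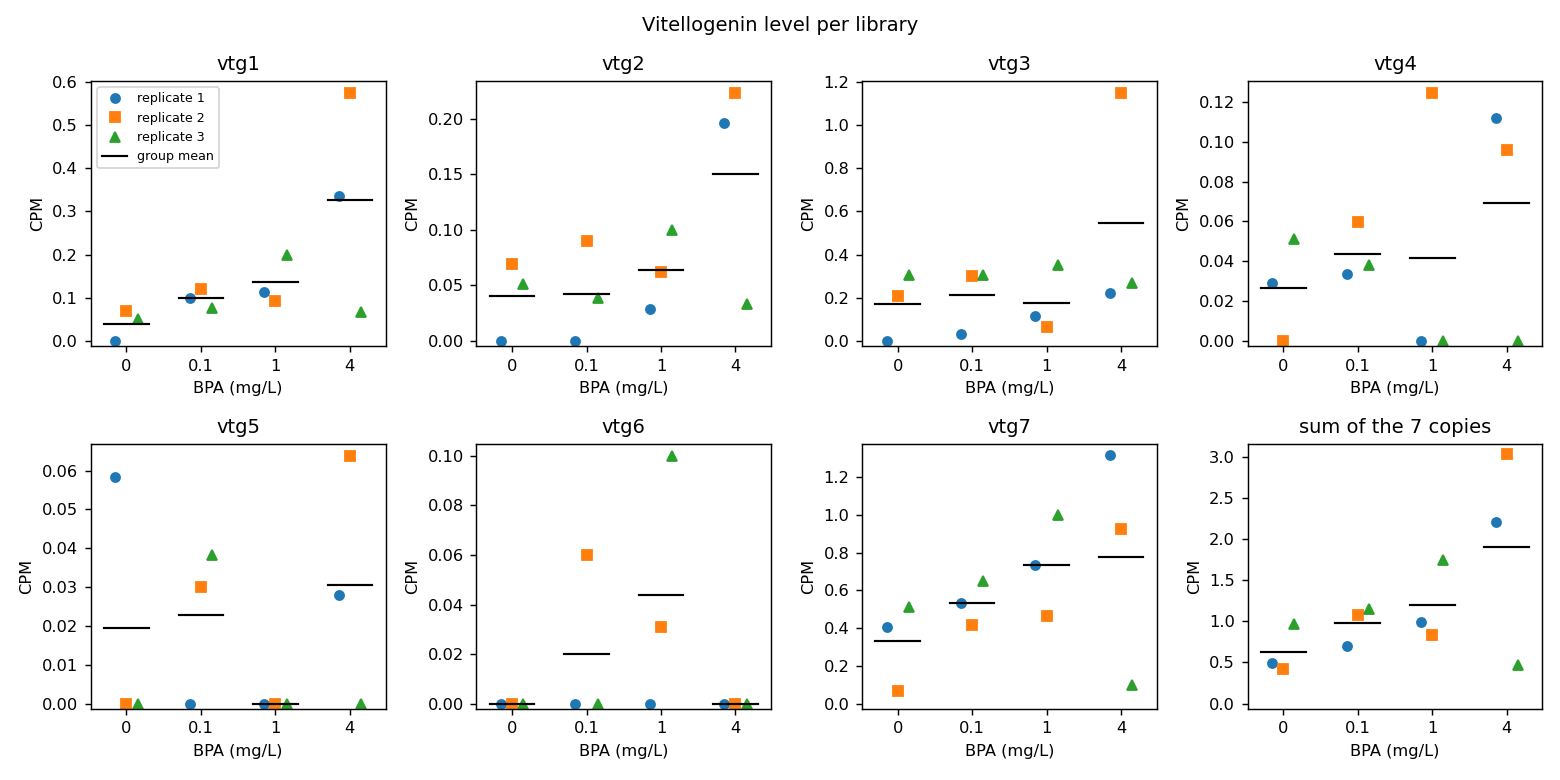
Level in CPM (vertical axis, a separate scale per panel) of each vitellogenin copy and of their sum against BPA dose in mg/L (horizontal axis), with 1 point per library, marked by replicate number, and a line at the group mean. vtg7 reaches 1.32 and 0.924 CPM in 4 mg/L replicates 1 and 2 and 0.1 CPM in replicate 3.

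vtg1, the copy most often measured as an estrogen marker in zebrafish, had 0, 2 and 1 counts in the controls. It had 3, 4 and 2 counts at 0.1 mg/L, 4, 3 and 4 at 1 mg/L and 12, 18 and 2 at 4 mg/L. The exposed libraries at the lower doses differed from the controls by a few counts at most, and 0.1 mg/L replicate 3 had the same 2 counts as control 2. Again 4 mg/L replicate 3 stayed at the level of the controls. The level was 0.0401 ± 0.0359 CPM in the controls, 0.0989 ± 0.0216 CPM at 0.1 mg/L, 0.135 ± 0.0567 CPM at 1 mg/L and 0.325 ± 0.253 CPM at 4 mg/L.

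In CPM, vtg1 was the only member with all 3 exposed libraries above all 3 controls, at 0.1 and at 1 mg/L. Of the 27403 genes with a count, 4.59% and 6.9% did so at these doses. For vtg1 at 0.1 mg/L this rests on the scaling of the libraries. Replicate 3 and control 2 both had 2 counts, which gave 0.0766 and 0.0694 CPM. At 4 mg/L the groups overlapped for every member (0 of 7), against 7.13% of genes that did not overlap upward. The ratio of pooled vtg1 counts over pooled totals was 2.76 at 0.1 mg/L (9 counts against 3, 95% conditional binomial interval 0.69 to 15.9) and 3.6 at 1 mg/L (11 against 3, interval 0.95 to 20.1), so the counting intervals include a ratio of 1 at both doses. At 4 mg/L the ratio was 9.9 (32 against 3, interval 3.1 to 50.5). For vtg7 the ratios were 1.67 (interval 1.01 to 2.8), 2.3 (1.43 to 3.79) and 2.82 (1.79 to 4.58) at 0.1, 1 and 4 mg/L, and for the sum 1.67 (1.16 to 2.43), 1.98 (1.39 to 2.86) and 3.64 (2.64 to 5.1). These intervals lie above 1, but they hold none of the spread between pools.

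The remaining 6 members were below the filter, and the model was also fitted with no filter, over all 27403 genes with a count. There edgeR called 0 of the 7 members in each of the 5 comparisons, beside 0% of genes at 0.1 mg/L, 0.0511% at 1 mg/L, 0.234% at 4 mg/L, 0.259% in the trend and 0.0657% for any difference. An unadjusted p under 0.05 was found for 1 member at 4 mg/L (vtg1), for 2 in the trend (vtg1 and vtg2), for 1 in the test of any difference (vtg1) and for 0 at 0.1 and 1 mg/L. Over all genes the shares under 0.05 were 10.5%, 12.6% and 6.72% in the first 3 of these. At 0.1 and 1 mg/L they were 4.51% and 7.65%. With 7 members, a count of 1 or 2 is too small to be set apart from these shares. DESeq2 with no filter also called 0, but it left the adjusted p undefined for 6 or all 7 members in each comparison.

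For vtg1 the edgeR log2 fold change in that fit was 3.02 at 4 mg/L (SE 0.88, unadjusted p = 0.0039, adjusted p = 0.21), higher in 2 of 3 libraries than in every control. Its slope per dose rank was 0.94 (SE 0.24, adjusted p = 0.13). Leaving out 4 mg/L replicate 3 brought the trend of vtg1 past the threshold (adjusted p = 0.031, slope 1.12), and leaving out any other single library did not. In the filtered fit without that library vtg1 and vtg7 were tested, and 1 of these 2 members, vtg1, was called. There vtg1 passed the filter only through its 12 and 18 counts in 4 mg/L replicates 1 and 2. The call is therefore no separate support for a trend.

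vtg2, the type II form, had 0, 2 and 1 counts in the controls, 0, 3 and 1 at 0.1 mg/L, 1, 2 and 2 at 1 mg/L and 7, 7 and 1 at 4 mg/L. Only 4 mg/L replicates 1 and 2 stood above the other libraries. The ratio of its pooled counts over pooled totals, 4 mg/L against control, was 4.64 (15 counts against 3, interval 1.31 to 25). With no filter, the edgeR log2 fold change was 1.94 (SE 1, adjusted p = 0.52), and the slope was 0.71 per rank (SE 0.29, adjusted p = 0.34).

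vtg3, the type without phosvitin, did not share the profile of vtg7 and vtg1 within the top dose. It had 0, 6 and 6 counts in the controls, 1, 10 and 8 at 0.1 mg/L, 4, 2 and 7 at 1 mg/L and 8, 36 and 8 at 4 mg/L. A single library, 4 mg/L replicate 2, held 69.2% of the counts of that group, and the other 2 were level with libraries at 0.1 and 1 mg/L. In each group but one, replicate 1 was the lowest or level with the lowest, and at 1 mg/L it was the middle library.

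The mean level of vtg3 was 0.171 ± 0.156 CPM in the controls, 0.213 ± 0.156 CPM at 0.1 mg/L, 0.175 ± 0.153 CPM at 1 mg/L and 0.546 ± 0.521 CPM at 4 mg/L. With no filter, edgeR gave a log2 fold change of 1.80 at 4 mg/L (SE 0.94, adjusted p = 0.52), which was 0.66 without replicate 2 of that dose and 2.44 without control 3. The ratio of pooled counts over pooled totals was 4.02 at 4 mg/L (interval 2.12 to 8.28), 1.06 at 1 mg/L (0.45 to 2.55) and 1.46 at 0.1 mg/L (0.67 to 3.29).

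**Figure D3:**
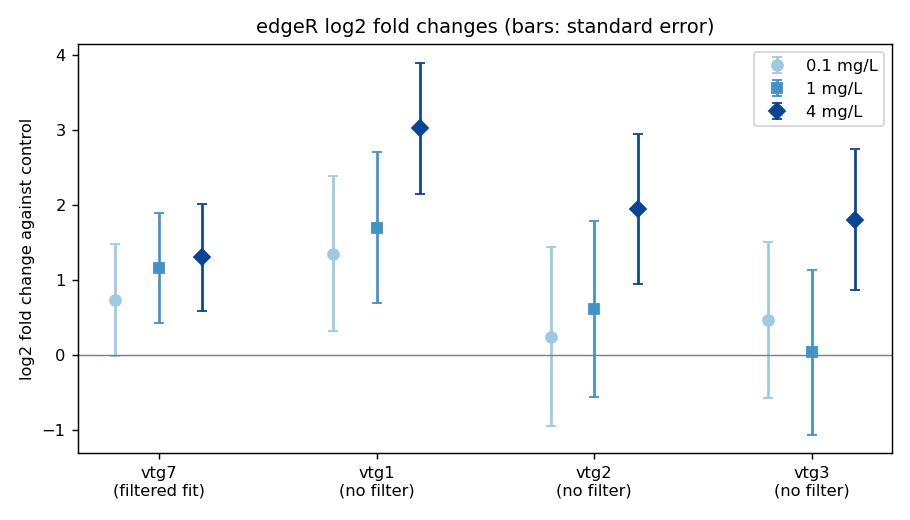
edgeR log2 fold change against control (vertical axis) at 0.1, 1 and 4 mg/L for the 4 copies with the most counts (horizontal axis), with bars of 1 standard error. vtg7 comes from the filtered fit and vtg1, vtg2 and vtg3 from the fit with no filter; no point passes an adjusted p of 0.05.

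The other type I copies were barely detected. vtg4 had 2 counts over the controls, 4 at 0.1 mg/L, 4 at 1 mg/L and 7 at 4 mg/L, with 0 in 4 of the 12 libraries. vtg5 had 2, 2, 0 and 3 counts in the same order of groups, and vtg6 had 0, 2, 3 and 0. vtg5 was at 0 in 7 libraries and vtg6 in 9. A count of 0 allows up to 3 counts, or 0.084 to 0.153 CPM depending on the library, so changes below that were not detectable at this depth. No fold is given for vtg6, whose counts in every group were at or under that floor.

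The copies' shares of the summed counts varied between groups, but also between libraries of a group. In control replicates 1, 2 and 3, vtg7 had 14 of 17, 2 of 12 and 10 of 19 counts. In those at 4 mg/L it had 47 of 79, 29 of 95 and 3 of 14. Pooled per group, vtg7 gave 54.2% of the vitellogenin counts in the controls, 54% at 0.1 mg/L, 62.9% at 1 mg/L and 42% at 4 mg/L. vtg1 gave 6.25%, 10.3%, 11.3% and 17%. vtg3 gave 25%, 21.8%, 13.4% and 27.7%. These are shares of counts, not of molecules, and they were not tested. The type I copies are close relatives whose reads can be assigned to the wrong copy or dropped. How such reads were handled is not given in the sources used here. If they were misassigned, the value of each copy is less certain than the sum. If they were dropped, the sum is too low as well.

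The genes around vitellogenin in the estrogen pathway were described from lists chosen with earlier results of these data known. Counts of calls in this and the later lists are therefore no independent support. Across all genes tested, edgeR called 0%, 0.067%, 0.281% and 0.219% in either direction at 0.1, 1 and 4 mg/L and in the trend. In the same order, DESeq2 called 0.143%, 1.24%, 2.17% and 2.47%. Of 4 estrogen receptor genes 3 were tested, and edgeR called 0 at any dose or in the trend. DESeq2 also called 0, but it left the adjusted p undefined for 3, 2 and 1 of them at 0.1, 1 and 4 mg/L. In the trend it was undefined for 2. esr1, whose receptor drives vitellogenin in the fish liver, was at 0.205 ± 0.101 CPM in the controls and at 0.373 ± 0.186, 0.338 ± 0.134 and 0.307 ± 0.0354 CPM at 0.1, 1 and 4 mg/L. Its edgeR log2 fold change was 0.88 (SE 0.51) at 0.1 mg/L and 0.76 (SE 0.52) at 1 mg/L, from 107 counts over all libraries. At 4 mg/L it was 0.64 (SE 0.52, adjusted p = 0.62). esr2a and esr2b, for the beta-type receptors, had 0.22 (SE 0.41) and 0.10 (SE 0.20) at that dose, both with an adjusted p above 0.8. The median over the 3 tested receptors was 0.22 at 4 mg/L, beside a median near 0 over all tested genes.

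Of 9 other estrogen-responsive genes tested, edgeR called 3 higher at 1 mg/L, at 4 mg/L and in the trend (cyp19a1b, f13a1a.1 and lhb), and 0 lower. DESeq2 called cyp19a1b and f13a1a.1 in the same comparisons and lhb at 4 mg/L. It left the adjusted p of lhb undefined at 1 mg/L and in the trend. The median log2 fold change of the 9 was 0.42 at 1 mg/L and 0.32 at 4 mg/L. cyp19a1b, which encodes brain aromatase and responds to estrogen in radial glia, was 0.204, 0.243 and 0.357 CPM in the controls. It was 14.6, 25.5 and 19.5 CPM in the 4 mg/L libraries, so replicate 3 was the middle one. f13a1a.1, a coagulation transglutaminase gene, was 2.6, 7.87 and 2.34 CPM there, lowest in replicate 3, against 0.0347 to 0.0583 CPM in the controls. lhb, the pituitary luteinizing hormone beta subunit, was 0.588, 1.53 and 1.14 CPM with 1 count over the 3 controls.

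In edgeR the adjusted p of cyp19a1b was 6.3e-07 at 4 mg/L and 0.0027 at 1 mg/L, that of f13a1a.1 was 0.0061 and 0.025, and that of lhb 0.0083 and 0.043. cyp19a1b was called at 4 mg/L in all 12 fits that left out 1 library. f13a1a.1 lost its call at 4 mg/L without control 1 (0.052) or control 2 (0.062), and lhb without control 1 (0.072), 2 (0.067) or 3 (0.051). At 1 mg/L the 3 genes were called in 11, 8 and 3 of the 12 fits. In the trend they were called in 12, 6 and 7 of them.

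**Figure D4:**
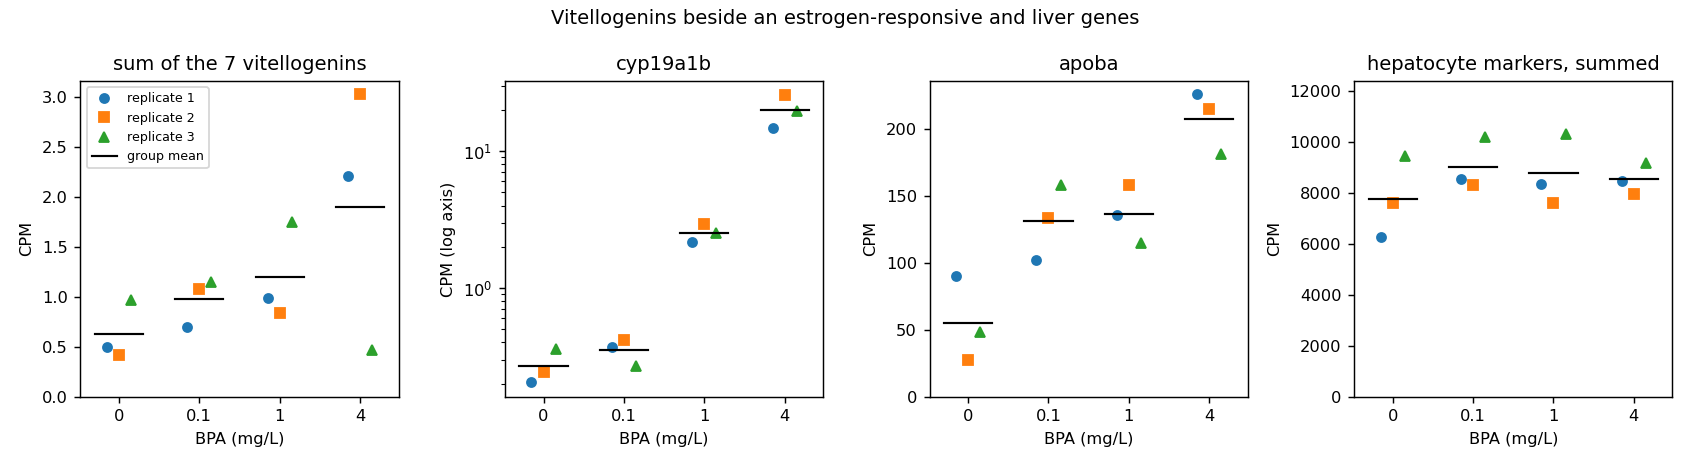
Summed vitellogenin level, cyp19a1b (log axis), apoba and the summed hepatocyte markers, each in CPM (vertical axes) against BPA dose in mg/L (horizontal axes), with 1 point per library and a line at the group mean. 4 mg/L replicate 3 is at 0.469 CPM for the vitellogenins, within the control range, and at 19.5 CPM for cyp19a1b, far above the controls.

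Liver markers were present in every library. The 15 hepatocyte markers found in the files were all tested, and none had a lowest level under 0.234 CPM. Their summed level was 6245 to 9444 CPM in the controls and 7964 to 9151 CPM at 4 mg/L. Most of that sum came from apoa2 and rbp4, with means of 3884 and 2420 CPM in the controls. At 4 mg/L these means were 3724 and 2371 CPM, so the sum says little about the other markers. 4 mg/L replicate 3, which was low in vitellogenin, had the highest hepatocyte sum of its group, 9151 CPM, against 8460 and 7964 CPM in replicates 1 and 2. Replicate 3 also had the highest hepatocyte sum in each of the other groups. Single markers differed in their order at 4 mg/L. There tfa, transferrin, was 871, 1014 and 628 CPM and f2, prothrombin, was 94.3, 104 and 87.9 CPM, both lowest in replicate 3. The marker fabp10a was 291, 492 and 389 CPM, lowest in replicate 1. The order of the other single markers is not given here. Of the 15 markers, edgeR called 0 at 0.1 mg/L and 1 higher at 1 mg/L, at 4 mg/L and in the trend. DESeq2 called 1 higher at 0.1 mg/L (f2), 6 at 1 mg/L (f2, tfa, fga, fgb, fgg and serpina1) and 4 at 4 mg/L and in the trend (f2, tfa, fga and fgb). Their median log2 fold change was 0.45, 0.71 and 0.37 at 0.1, 1 and 4 mg/L.

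The marker called by edgeR was f2, at 41.1 ± 6.96 CPM in the controls and 95.4 ± 8.07 CPM at 4 mg/L (edgeR adjusted p = 0.011). It kept that call in 9 of the 12 fits that left out 1 library, not without control 1 (0.052), control 2 (0.075) or 4 mg/L replicate 2 (0.051). At 1 mg/L it kept its call in 0 of the 12, and in the trend in 6. Among the other named markers, fabp10a, a hepatocyte fatty acid binding protein gene, had a log2 fold change of 0.32 (adjusted p = 0.59), and tfa had 1.08 (adjusted p = 0.15) at 4 mg/L in edgeR. The yolk syncytial layer also makes lipoproteins at this stage. Its 9 tested markers had 0 calls in edgeR in each comparison, and in DESeq2 apoc2 and apoa1b were called higher at 1 mg/L, apoc2 and apobb.1 at 4 mg/L and apoc2 in the trend. The summed level of these markers was 4579 to 6248 CPM in the controls and 6558 to 9234 CPM at 0.1 mg/L. It was 8288 to 10156 CPM at 1 mg/L and 6520 to 9443 CPM at 4 mg/L. The largest parts of this sum were apoa1b and apobb.1, with means of 2892 and 917 CPM in the controls. At 4 mg/L these means were 4355 and 2059 CPM, so this sum too says little about the other markers. The yolk syncytial layer marker mxtx2 had 5 counts in all. The part of these cell types in the vitellogenin counts was not tested.

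The listed oocyte and ovary markers were low in all groups. Of 17 oocyte and ovary markers, 13 were in the files and 2 passed the filter, zp3b and ddx4, with 0 called. The list summed to 2.43 to 3.62 CPM in the controls and 2.69 to 5.02 CPM at 4 mg/L. The germ cell gene ddx4 had the most counts of the list, 649 over all libraries, so the sum says little about the oocyte genes. The oocyte genes figla and gdf9 had 7 and 10 counts over all libraries, and figla was at 0 in 8 of them.

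Vitellogenin shares its lipid-binding domain with apolipoprotein B and the microsomal triglyceride transfer protein. Of the 3 members of that family tested (apoba, apobb.1 and apobb.2; mttp was not matched by symbol), edgeR called apoba higher at 4 mg/L and 0 at the other doses and in the trend. DESeq2 called apoba at 1 mg/L, at 4 mg/L and in the trend, and apobb.1 at 4 mg/L. apoba was 90.2, 27.6 and 48.1 CPM in the controls and 226, 215 and 181 CPM at 4 mg/L, with no overlap. Its edgeR log2 fold change was 1.91 (SE 0.33, adjusted p = 0.041). That call was kept in 3 of the 12 fits that left out 1 library, and the adjusted p reached 0.18 without control 3. apobb.1, an apolipoprotein B of the yolk syncytial layer, had a mean of 2059 ± 510 CPM at 4 mg/L and 917 ± 420 CPM in the controls (edgeR log2 fold change 1.17, SE 0.35, adjusted p = 0.21).

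Of 15 tested genes for the uptake and cutting of yolk protein, edgeR called 0 at any dose, and 1, lrp2b, higher in the trend. DESeq2 called lrp2b higher at 4 mg/L and in the trend, and ctsla, a cathepsin L gene, at 1 mg/L, at 4 mg/L and in the trend. lrp2b, a large endocytic receptor gene, had 7.21 ± 1.69 CPM in the controls and 17 ± 5.09 CPM at 4 mg/L, with a slope of 0.43 per rank (SE 0.08, edgeR adjusted p = 0.0497), and it kept that call in 2 of the 12 fits that left out 1 library, with 0.17 without 4 mg/L replicate 2. vldlr, from the family of the oocyte vitellogenin receptor, had a log2 fold change of 0.30 at 4 mg/L (SE 0.17, adjusted p = 0.48). lrp13 was below the filter with 17 counts in all, and nots, a liver protease gene, was not matched by symbol. The median of the list was 0.11 at 4 mg/L.

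The genes whose levels across the 12 libraries were most like those of vtg7 were tmem264 (Pearson r = 0.88, Spearman rho = 0.89), tp53inp2 (0.87, rho 0.78), ctgfb (0.85, rho 0.83), rab11ba (0.83, rho 0.76) and si:dkey-96g2.1 (0.83, rho 0.68). They are the highest of 22398 genes compared on log2 CPM, so the values carry no test. Without the 2 libraries farthest from the median of vtg7, control 2 and 4 mg/L replicate 3, r was 0.75, 0.58, 0.83, 0.59 and 0.53. For the summed vitellogenins the closest were C3 (r = 0.86), tmem264 (0.86), flvcr2b (0.84), lhx1b (0.84) and clec11a (0.84), and without 4 mg/L replicates 1 and 2 these were 0.81 to 0.84. C3, annotated in the files under that symbol, was 0.644, 1.69 and 0.335 CPM at 4 mg/L and 0.321, 0.451 and 0.562 CPM in the controls.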

How the data were processed

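Poly-A RNA of whole larvae was sequenced as paired reads of 76 bases from stranded libraries. The authors deposited whole-number counts per gene for 31540 genes, not normalized; 0 values were not whole. Per the submitters' processing notes, CASAVA, STAR 2.5.1b, RSEM 1.2.28, DESeq2 1.10.1 and the build GRCz10 were named, with no role or order; the handling of reads shared between copies is not given in the sources used here. Groups came from the sample titles. All 7 member identifiers carried the same symbols in the reference table of gene names, and 6 of the symbols were in the separate RefSeq gene table.

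From the counts, genes were kept by filterByExpr (minimum count 10, minimum total 15), leaving 22399, and scaled by TMM. A quasi-likelihood model over all 12 libraries was fitted in edgeR 4.0.16 (R 4.3.3) with group, or dose rank, as the only term, at an adjusted p of 0.05. SE is the log2 fold change divided by the square root of F. Before use, the 4 mg/L comparison was run on simulated counts of genes past the filter. That run did not cover the trend or the fits with no filter. DESeq2 1.42.0, RLE scaling, no filter, at least 1 CPM in 3 libraries, a replicate block, only the libraries numbered 1 and 2, and each library left out were alternatives. Intervals of pooled count ratios are 95% exact conditional binomial intervals. Without molecular identifiers, PCR copies are not independent molecules, so intervals and floors describe counting error alone.

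The members, lists and tests were chosen with earlier results of these data known. Named were all members, list genes past the threshold, 12 fixed pathway genes and the 5 genes most like vtg7 and the sum. Fitted values are given for the 4 copies with the most counts, a choice made after seeing the counts. In those earlier results the third library of each group had stood apart in a principal component analysis, which led to the alternative with numbers 1 and 2. No protein or promoter sequences were used here.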

Additional observations from a re-analysis of the deposited data

How the results depend on the processing

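In the trend over dose ranks, the count of vitellogenins called ran from 0 to 1 over the 12 fits that left out 1 library. The 1 was vtg1 without 4 mg/L replicate 3, where it passed the filter only through 4 mg/L replicates 1 and 2. In the other 4 comparisons the count called was 0 in all 12. It was 0 in all 5 comparisons with DESeq2, RLE scaling, no filter, the replicate block and only the libraries numbered 1 and 2. DESeq2 gave the only member it tested, vtg7, no adjusted p at 0.1 mg/L, 1 mg/L and in the trend, so a 0 there is no verdict. Requiring at least 1 CPM in 3 libraries left 0 members and gave no value. With the replicate block, vtg7 had a log2 fold change of 1.34 at 4 mg/L (edgeR adjusted p = 0.30), and vtg1, fitted with no filter, had a slope of 0.93 (adjusted p = 0.051). Same-numbered control and exposed libraries correlated from −0.239 to 0.455 in their deviations from the group means, and same-numbered libraries of different exposed groups from 0.232 to 0.513. All correlations below 0.1 involved control replicate 2, at 0.002, −0.239 and −0.094 with 0.1, 1 and 4 mg/L. Those of controls 1 and 3 ran from 0.21 to 0.455. The main fits held no replicate term, because the labels do not say that a number marks a shared clutch or day. The mean summed level stayed above the control in all 30 alternatives: over the omissions the ratio ran from 1.33 to 2.14 at 0.1 mg/L, 1.46 to 2.62 at 1 mg/L and 2.14 to 4.18 at 4 mg/L. Its log2 value at 4 mg/L was 2.52 with only the libraries numbered 1 and 2 and 1.91 without vtg7. None of the 30 alternatives left out both replicates 1 and 2 at 4 mg/L, so they cannot show what remains without these high libraries. Among the libraries numbered 3 alone, the summed level at 4 mg/L was 0.483 times that of the control. With no filter, the 4 mg/L fold of vtg1 ran from 5.07 to 14.4 over the omissions (without controls 1 and 2) and that of vtg2 from 2.4 to 6.81 (without controls 1 and 2). Low counts kept 6 of 7 copies below the filter, and the summed count of 4 mg/L replicate 3 differed from those of replicates 1 and 2 by more than their counting intervals.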

Other observations

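One further gene of the cluster, listed in the files as si:dkey-4c23.3 (ENSDARG00000092028) and named vtg8 in the reference gene table, was added after the counts were seen. It is a type II vitellogenin like vtg2 and is not among the 7 members. It had 4 counts over the controls, 1 at 0.1 mg/L, 1 at 1 mg/L and 2 at 4 mg/L. In 7 of the 12 libraries it was at 0, among them 4 mg/L replicates 1 and 2. Its 2 counts at that dose came from replicate 3.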
